A study of Mus musculus with 564 samples.

Results

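AP-1 is a family of dimeric transcription factors built from FOS proteins (Fos, Fosb, Fosl1, Fosl2), JUN proteins (Jun, Junb, Jund) and relatives such as Atf3, Batf and Batf3, which share a basic region and a leucine zipper (bZIP). Described here is the histone acetylation around these 10 genes in mouse macrophages. Each row of the deposited table is a cis-regulatory element (CRE), a stretch of accessible chromatin over which reads were counted. A CRE was taken as a member when its centre lay within 25 kb of an mm10 RefSeq transcription start of 1 of the 10 genes. This gave 63 of 59190 CREs, with 10 at Atf3, 8 each at Fosb and Batf, 7 each at Fos and Batf3, 6 each at Fosl1, Junb and Jund, 3 at Fosl2 and 2 at Jun. Position alone chose the members, so a CRE listed under a gene need not act on it.

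The cells were bone marrow-derived macrophages (BMDMs), primary macrophages grown from the marrow of young adult male C57/BL6 mice of wild type genotype. Pre-treatment lasted 1 h and used either DMSO as vehicle or 1 compound from a panel of 58 clinical kinase inhibitors (CKIs). The cells then stayed untreated (UT) or received lipopolysaccharide (LPS) or interleukin 4 (IL-4), each at 10 ng/mL, for 30 min, 1 h, 2 h or 4 h. The readout was ChIP-seq of H3K27ac, the acetylation of histone H3 at lysine 27 that marks active regulatory DNA. The UT libraries are titled as time 0, but their treatment label gives 4 h without stimulus, and they served as the start of both courses. There were 564 libraries, of which 18 were DMSO libraries (9 groups of 2) and 546 were CKI libraries. Of the CKI groups, 474 held 1 library and 36 held 2. Each CKI had been given at a concentration set by its binding to an intended target in an in vitro assay, so the concentrations differ between compounds. For some CKIs the intended target was not the kinase of the clinical annotation. The paper cautions that values from this assay may differ from those measured in cells. It also states that most concentrations lay within or above those reported to have detectable effects in various cells. The labels do not say whether replicates came from separate cultures or animals, and p-values then measure only the spread between these libraries, which may be technical. In such bulk material fewer cells with the mark and less of the mark per cell cannot be told apart.

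Several of the 10 genes are textbook immediate early or stress-responsive genes. Fos, Fosb and Fosl1 are known targets of serum response factor and its ERK-phosphorylated partners, Jun is controlled in part by its own product after phosphorylation by JNK, and Atf3 is a stress-induced repressor of inflammatory genes. Batf and Batf3 lack a transactivation domain and bind DNA with JUN proteins and, at composite sites, with IRF factors. LPS signals through TLR4 to NF-kB and to the ERK, JNK and p38 kinases, whereas IL-4 signals mainly through STAT6.

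The 7 CREs on which most of the results turn are shown by the central 300 bp of the deposited interval, read from the forward strand of mm10. Capitals mark each match to 1 of 5 searched motifs, which were the AP-1 site TGANTCA, the ATF site TGACGTCA, the STAT site (TTC, 4 bases of any kind, GAA), the NF-kB site (GGGA, 1 base of any kind, TTTCC) and the CArG box of serum response factor, CC followed by 6 A or T and GG. The Fos promoter is shown for its fall after both stimuli, Fosb -6.5 kb for the deepest fall after LPS, and Batf -20.2 kb for the largest rise. Batf -16.4 kb rose after both stimuli, Batf3 -3.2 kb rose after IL-4 and was not called after LPS, Batf3 -23.0 kb rose at 30 min of LPS and after IL-4, and Junb -6.8 kb differed between the stimuli. Names give the distance of the centre of the CRE from the start of the gene, with a minus sign for upstream.
Fos promoter, chr12:85473291-85473590: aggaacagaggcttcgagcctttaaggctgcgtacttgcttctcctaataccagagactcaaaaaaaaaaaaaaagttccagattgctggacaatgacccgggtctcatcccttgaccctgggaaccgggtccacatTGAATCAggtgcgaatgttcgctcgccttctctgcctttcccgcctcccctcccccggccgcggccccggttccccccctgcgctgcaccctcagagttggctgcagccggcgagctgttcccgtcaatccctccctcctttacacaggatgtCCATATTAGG
Fosb -6.5 kb, chr7:19316412-19316711: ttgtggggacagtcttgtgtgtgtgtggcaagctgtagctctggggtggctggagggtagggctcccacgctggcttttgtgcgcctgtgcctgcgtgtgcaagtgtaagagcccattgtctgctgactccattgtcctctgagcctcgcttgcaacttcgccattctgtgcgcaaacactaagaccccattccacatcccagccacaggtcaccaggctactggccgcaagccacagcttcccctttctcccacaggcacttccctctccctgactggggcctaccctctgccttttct
Junb -6.8 kb, chr8:84985426-84985725: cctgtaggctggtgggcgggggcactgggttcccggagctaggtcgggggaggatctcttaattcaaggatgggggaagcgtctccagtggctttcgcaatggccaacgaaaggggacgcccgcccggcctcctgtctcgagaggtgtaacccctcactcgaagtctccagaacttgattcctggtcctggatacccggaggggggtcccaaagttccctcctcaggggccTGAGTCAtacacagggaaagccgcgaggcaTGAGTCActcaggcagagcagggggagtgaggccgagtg
Batf -20.2 kb, chr12:85666321-85666620: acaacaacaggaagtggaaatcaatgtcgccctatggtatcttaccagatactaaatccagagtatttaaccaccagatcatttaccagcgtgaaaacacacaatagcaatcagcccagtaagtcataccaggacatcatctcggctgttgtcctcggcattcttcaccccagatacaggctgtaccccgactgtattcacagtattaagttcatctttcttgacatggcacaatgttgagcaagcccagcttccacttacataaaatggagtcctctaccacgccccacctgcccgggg
Batf -16.4 kb, chr12:85670133-85670432: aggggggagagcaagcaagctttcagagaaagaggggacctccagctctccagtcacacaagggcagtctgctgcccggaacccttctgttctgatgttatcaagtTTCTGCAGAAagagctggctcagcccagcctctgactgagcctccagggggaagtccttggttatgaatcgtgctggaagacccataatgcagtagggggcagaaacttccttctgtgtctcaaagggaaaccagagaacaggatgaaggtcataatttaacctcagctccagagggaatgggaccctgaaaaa
Batf3 -3.2 kb, chr1:191095034-191095333: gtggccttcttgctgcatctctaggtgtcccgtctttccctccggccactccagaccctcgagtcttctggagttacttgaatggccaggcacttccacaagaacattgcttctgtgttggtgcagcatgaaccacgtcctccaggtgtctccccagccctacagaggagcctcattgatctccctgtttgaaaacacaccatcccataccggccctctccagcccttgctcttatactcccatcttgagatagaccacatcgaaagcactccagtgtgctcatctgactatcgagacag
Batf3 -23.0 kb, chr1:191075293-191075592: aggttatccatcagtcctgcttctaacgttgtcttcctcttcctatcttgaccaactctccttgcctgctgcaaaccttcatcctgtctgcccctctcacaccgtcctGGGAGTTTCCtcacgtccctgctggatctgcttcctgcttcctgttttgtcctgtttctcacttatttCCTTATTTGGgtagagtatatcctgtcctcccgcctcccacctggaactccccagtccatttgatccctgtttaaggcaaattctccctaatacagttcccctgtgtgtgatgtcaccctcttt

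In these windows, read on both strands, the Fos promoter held TGAATCA and a CArG box, Junb -6.8 kb held TGAGTCA 2 times, Batf -16.4 kb held a STAT match and Batf3 -23.0 kb held an NF-kB match and a CArG box. Fosb -6.5 kb, Batf -20.2 kb and Batf3 -3.2 kb held none of the 5, which says only that these letters are not in the central 300 bp. Over all 63 members 7 windows held TGANTCA (11.1%, against 20.2% of the windows of all CREs), 8 held the STAT match (12.7% against 9.21%), 3 held a CArG box (4.76% against 1.49%), 1 held the NF-kB match (1.59% against 0.928%) and 0 held TGACGTCA (0.848% of all). These shares describe letters and not bound sites.

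In the DMSO libraries the macrophage identity of the cells was visible at promoters, where 8 of 8 macrophage markers had a CRE with a median UT value of 270 per kb, against 72.3 per kb over all promoter CREs. Markers of other cells were low or without a promoter CRE: 1 of 5 neutrophil genes (S100a8, 7.57 per kb), 1 of 3 dendritic cell genes, 1 of 4 fibroblast genes, 1 of 4 B cell genes and 0 of 4 T cell genes had one. The dendritic cell gene with a promoter CRE, Flt3, rose after IL-4 (1.51 at 30 min, limma adjusted p = 0.00153), and its part in the IL-4 results was not tested. Replicate DMSO libraries correlated at r from 0.960 to 0.982 over CREs on the log2 scale. Totals over CREs ran from 4066894 to 12391409 after the scaling of the authors. The DMSO libraries separated strong from weak CREs more than the CKI libraries did. The ratio of medians between the top 10% and the bottom 10% of CREs by mean signal was 53.0 to 134 in DMSO and 3.34 to 67.2 with CKIs. The library that stood apart was PH797804 with LPS at 30 min, in which 21.0% of CREs were at 0 and neighbouring low values lay 25 apart on average, against a median of 3.57 over CKI libraries and at most 2.56 in DMSO.

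Before stimulation the members already spanned a wide range of acetylation. Per kb of CRE, in the 2 UT DMSO libraries, the Junb promoter was highest of the promoters at 190 ± 6.65 (SD, n = 2), followed by Fos at 154 ± 10.4, Jun at 149 ± 8.89, Fosl2 at 129 ± 13.9, Atf3 at 125 ± 6.06 and Jund at 116 ± 2.92. Neighbours from Fos to Jund overlapped or nearly overlapped within their SD. Fosb (47.0 ± 5.34) and Batf3 (46.4 ± 8.51) lay well lower and did not differ beyond their spread. Fosl1 stood at 15.5 ± 2.62, and the CRE nearest to the Batf start, Batf +1.3 kb, which does not contain the start, was lowest at 7.99 ± 3.16. A distal element, Atf3 -18.0 kb, carried the highest density of all members at 303 ± 33.7 per kb.

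The first comparison asked which members gained or lost H3K27ac over the LPS course in DMSO. Around these genes LPS both raised and lowered acetylation, strongly and with gene-specific timing: all 8 Batf elements rose, elements at Fos and Fosb fell by more than any other member, and the Fosl1 and Fosb promoters were highest at the earliest time. A CRE was called when limma's moderated F-test over the 4 times, on log2(value + 5), gave a Benjamini-Hochberg adjusted p under 0.01 over all CREs and the difference from UT exceeded 1 (log2) at 1 or more times. Of 60 members tested, 39 were called, 22 higher and 17 lower at their largest difference, where 53.5% of all tested CREs were called (29.0% higher, 24.6% lower). By gene the calls were 8 of 8 at Batf, all higher, 6 of 7 at Fos (2 higher, 4 lower), 5 of 7 at Fosb (1 higher, 4 lower), 5 of 10 at Atf3 (4 higher, 1 lower), 4 of 6 at Fosl1 (3 higher, 1 lower), 4 of 7 at Batf3 (1 higher, 3 lower), 3 of 6 at Junb (2 higher, 1 lower), 2 of 5 at Jund (1 each way), 1 of 3 at Fosl2 (lower) and 1 of 1 at Jun (lower). Jun -10.8 kb, Fosb +6.1 kb and Jund +20.7 kb had means under 10 over these libraries and were not tested. Time by time, the members called higher numbered 10, 15, 17 and 17 at 30 min, 1 h, 2 h and 4 h, where 16.3%, 19.6%, 21.3% and 20.5% of all CREs were. Those called lower numbered 9, 12, 13 and 9, where 13.1%, 15.1%, 19.7% and 15.8% of all CREs were.

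**Figure D1:**
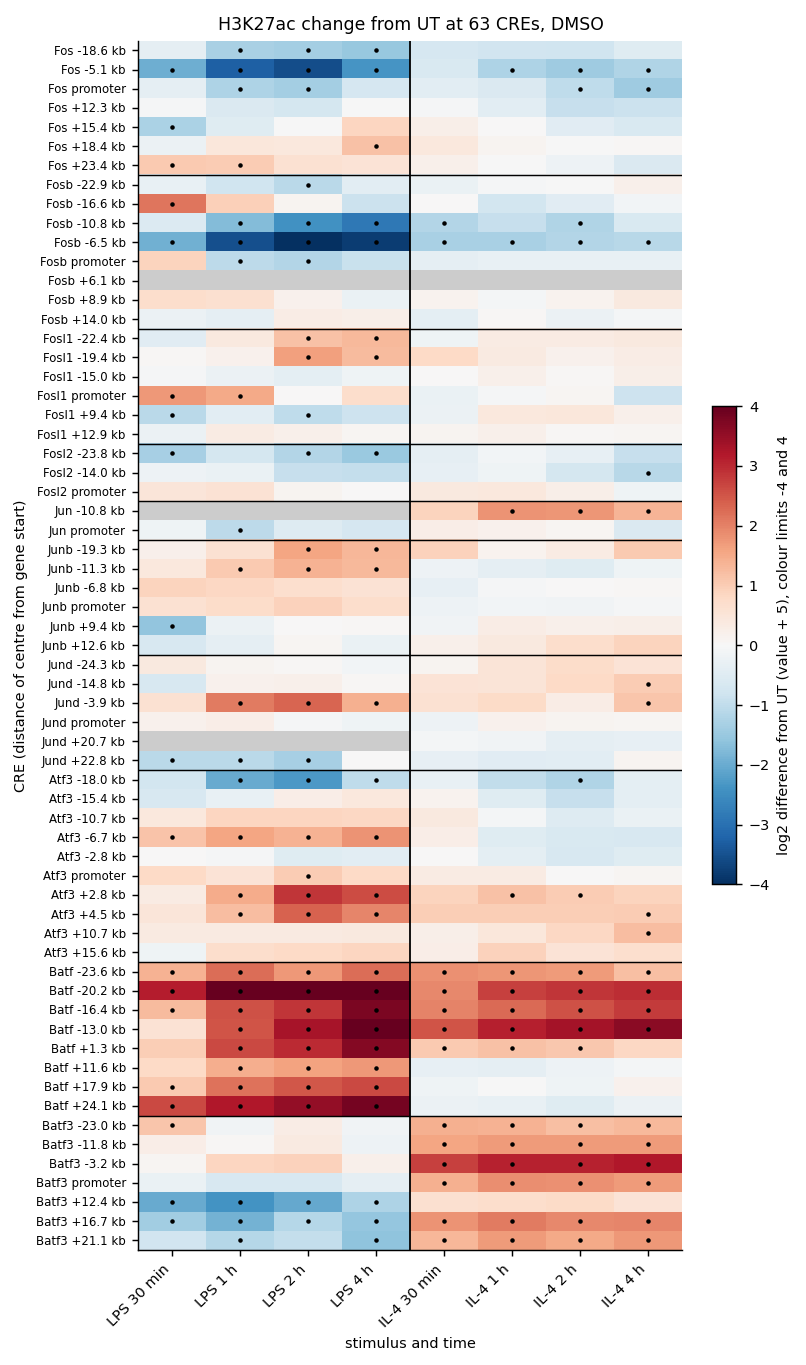
Heatmap of the log2 difference from UT (log2(value + 5), colour scale) of the 63 member CREs, 1 row per CRE grouped by gene, at 30 min, 1 h, 2 h and 4 h of LPS (left) and IL-4 (right) in DMSO. Dots mark a difference called at that time and grey cells were not tested. All 8 Batf rows are red after LPS, and most Batf3 rows are red after IL-4, while after LPS only Batf3 -23.0 kb carries a dot for a rise.

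Fos and Fosb lost acetylation at and near their starts. Fos, the founding member of the family, had a promoter CRE (chr12:85471460-85475420) with values of 580 and 638 in the UT libraries. After LPS the pairs were 470 and 478 at 30 min, 256 and 256 at 1 h, 227 and 241 at 2 h and 351 and 405 at 4 h. All LPS libraries lay below both UT libraries, the largest difference was -1.36 ± 0.13 (log2 ± SE) at 2 h, and the adjusted p was 9.49e-12. The upstream element Fos -5.1 kb (chr12:85467960-85469705) fell further, from 440 and 381 in UT to 99 and 103, 50 and 29, 32 and 29, and 86 and 67. Its difference reached -3.55 ± 0.23 at 2 h (adjusted p = 3.60e-15). Downstream elements went another way. Fos +15.4 kb dropped from 633 and 526 to 241 and 234 at 30 min (-1.26 ± 0.12), was back at 615 and 538 at 2 h and stood at 1132 and 983 at 4 h, above both UT values, where the difference of 0.86 did not reach the threshold. Fos +23.4 kb rose by 1.05 at 30 min and Fos +18.4 kb by 1.19 at 4 h, whereas Fos -18.6 kb fell by 1.52 on the log2 scale at 4 h.

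Fosb, a close relative of Fos, showed a short rise at its promoter and a loss upstream. The promoter CRE (chr7:19307889-19311200) stood at 143 and 168 in UT, at 315 and 267 at 30 min, then at 64 and 81, 61 and 70, and 97 and 69. The pair at 30 min lay above both UT values (0.88 ± 0.20, under the threshold of 1) and the pairs from 1 h on lay below them, with -1.19 ± 0.20 at 2 h and an adjusted p of 3.77e-11. Fosb -16.6 kb followed the same early course with a larger rise, from 41 and 39 to 193 and 190 at 30 min (2.13 ± 0.28), and was at 14 and 28 at 4 h. Fosb -6.5 kb (chr7:19315582-19317540), printed above, gave the largest loss of any member. It went from 253 and 227 in UT to 43 and 81, 26 and 10, 4 and 9, and 21 and 7, with -4.45 ± 0.37 at 2 h (adjusted p = 1.57e-12). Fosb -10.8 kb fell later, from 104 and 110 to 13 and 8 at 4 h (-2.87 ± 0.30).

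Fosl1, which encodes FRA-1, was a low promoter that rose early. Its CRE (chr19:5446944-5449646) held 47 and 37 in UT, 135 and 168 at 30 min, 127 and 133 at 1 h, 45 and 39 at 2 h and 76 and 67 at 4 h. The first 2 times lay well above UT (1.74 ± 0.22 at 30 min, adjusted p = 1.84e-09), the third did not differ from it (0.01 ± 0.22), and the last was again above both UT libraries without passing the threshold. Fosl1 -22.4 kb rose late (1.28 ± 0.13 at 4 h), but this CRE also contains the starts of Drap1 and AI837181, and Fosl1 +9.4 kb, which fell (-1.07 ± 0.20 at 30 min), contains the start of Ccdc85b. The distal element with the largest change, Fosl1 -19.4 kb, was weak throughout, at 12 and 10 in UT and 47 and 43 at 2 h (1.65 ± 0.37). Fosl2, which encodes FRA-2, kept a high promoter, at 994 and 1158 in UT and 1543 and 1675 at 1 h (0.58 ± 0.09, not called). Fosl2 -23.8 kb fell from 310 and 301 to 117 and 123 at 30 min and 127 and 87 at 4 h (-1.49 ± 0.19).

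**Figure D2:**
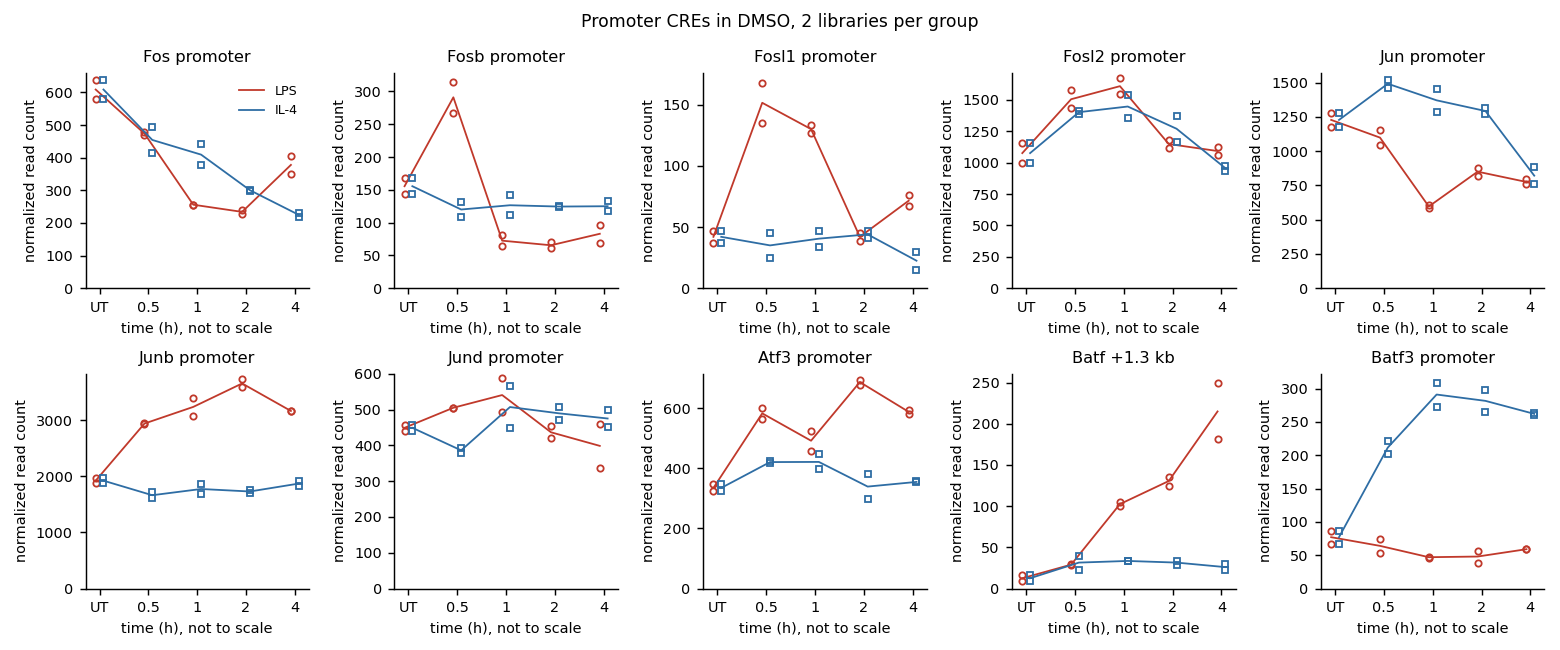
Deposited value (normalized read count, linear axis from 0) of the promoter CRE of each gene in every DMSO library against time, with UT at 0; red circles are LPS, blue squares are IL-4 and lines join the means of 2 libraries. The Fosl1 and Fosb panels peak at 30 min of LPS, the Fos panel falls after both stimuli, and the Batf3 panel separates the stimuli at every time.

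At the JUN genes the promoters differed from UT by about 1 or less on the log2 scale. Junb, a partner of BATF proteins, had the highest promoter (chr8:84973602-84983710), with 1876 and 1971 in UT and 2938 and 2946, 3076 and 3402, 3586 and 3728, and 3171 and 3162 after LPS. Every LPS library lay above both UT libraries, yet the largest difference was 0.93 ± 0.06 at 2 h and so stayed under the threshold of 1 (adjusted p = 5.76e-14). Junb -11.3 kb, which also contains the start of Hook2, was called at 1.38 ± 0.13. Junb +9.4 kb, which contains the start of Prdx2, fell at 30 min, from 422 and 403 to 104 and 178 (-1.56 ± 0.16), and was at 352 and 350 at 1 h. The weak Junb -19.3 kb rose from 11 and 20 to 51 and 58 at 2 h (1.57 ± 0.32).

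Jun itself went down. Its promoter CRE (chr4:95047395-95055663) held 1176 and 1280 in UT, 1044 and 1154 at 30 min, 589 and 604 at 1 h, 879 and 822 at 2 h and 757 and 794 at 4 h. All LPS libraries lay below both UT libraries and the difference at 1 h was -1.03 ± 0.09 (adjusted p = 3.13e-11). Without the UT library of replicate 2 it was -0.97 and no longer past the threshold. The Jund promoter, that of the most constant JUN gene, held 441 and 457 in UT and differed by at most 0.26 after LPS. Close to it, Jund -3.9 kb (chr8:70692994-70694631) rose from 31 and 25 to 118 and 153 at 1 h and 150 and 169 at 2 h (2.32 ± 0.24).

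Atf3 rose mainly just inside the gene. Its promoter CRE (chr1:191181727-191184408) held 323 and 346 in UT, then 564 and 601, 525 and 458, 678 and 695, and 581 and 594. All LPS libraries lay above UT, with 1.03 ± 0.11 at 2 h (adjusted p = 5.66e-09), a call that was lost without the UT library of replicate 1 (0.98) and under quantile normalization (0.87). Atf3 +2.8 kb (chr1:191179738-191181320) rose much further, from 89 and 101 to 114 and 129, 269 and 279, 719 and 735, and 644 and 573 (2.87 ± 0.14 at 2 h, adjusted p = 4.64e-20), and Atf3 +4.5 kb beside it by 2.37 ± 0.25. Upstream, Atf3 -6.7 kb rose to 219 and 171 at 4 h from 62 and 44 (1.79 ± 0.19). Atf3 -18.0 kb, the densest element before stimulation, fell from 542 and 463 to 81 and 120 at 2 h (-2.29 ± 0.17).

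Batf, which encodes a partner of JUN and IRF proteins, was the locus with the largest gains. Batf -20.2 kb (chr12:85665282-85667658) was nearly unmarked in UT, at 9 and 8, and held 117 and 109, 300 and 279, 378 and 417, and 644 and 622 after LPS. It was higher at each later time, and its difference of 5.56 ± 0.17 at 4 h (adjusted p = 3.83e-24) was the largest of all members. The promoter-nearest Batf +1.3 kb (chr12:85687286-85688850) went from 16 and 9 to 30 and 28, 100 and 105, 136 and 125, and 249 and 181 (3.66 ± 0.24 at 4 h). Batf +17.9 kb, already marked in UT at 339 and 322, reached 2244 and 1939 at 4 h (2.64 ± 0.09), and Batf +24.1 kb went from 63 and 38 to 817 and 721 (3.84 ± 0.16). Batf -13.0 kb was late, at 18 and 22 at 30 min against 16 and 8 in UT, and at 282 and 247 at 4 h (4.02 ± 0.25).

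Batf3, best known for its role in cross-presenting dendritic cells, lost acetylation downstream of its start after LPS. Its promoter CRE (chr1:191097571-191099231) held 67 and 87 in UT and 39 to 74 in the LPS libraries, and was not called (adjusted p = 0.0943). Batf3 +12.4 kb (chr1:191109286-191112313) fell from 648 and 551 to 114 and 178 at 30 min and 110 and 111 at 1 h (-2.38 ± 0.17). It was partly back at 244 and 257 at 4 h. Batf3 -23.0 kb was called at 30 min alone, at 376 and 495 against 212 and 187 (1.10 ± 0.17).

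**Figure D3:**
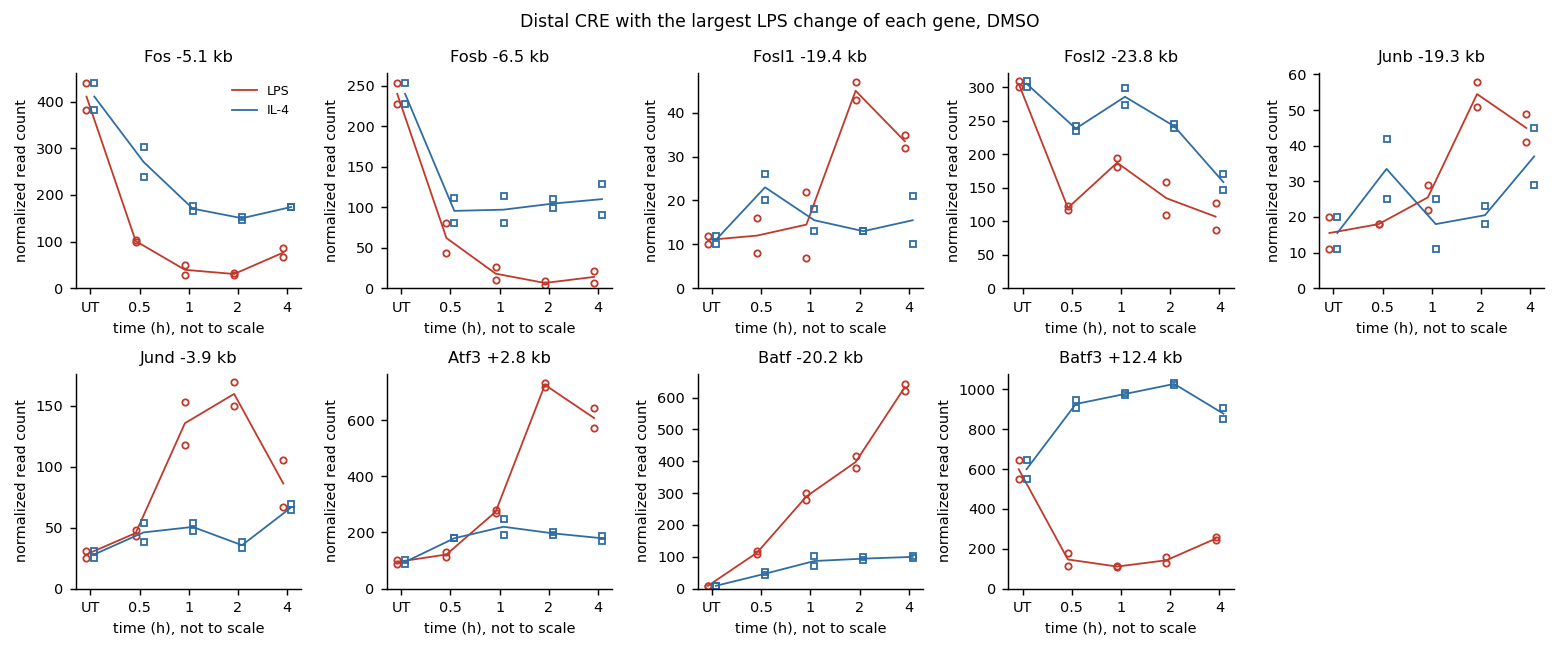
Deposited value (normalized read count, linear axis from 0) in every DMSO library against time for the distal CRE of each gene with the largest LPS change; red circles are LPS, blue squares are IL-4 and lines join the means of 2 libraries. Batf -20.2 kb climbs to 622 and 644 at 4 h of LPS, while Fosb -6.5 kb and Fos -5.1 kb fall to 32 or lower by 2 h.

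The IL-4 course asked the same question of a stimulus that acts through STAT6. Here most elements at Batf3 and Batf gained acetylation and some at Fos and Fosb lost it. Of 62 members tested, 21 were called, 15 higher and 6 lower, where 24.7% of all tested CREs were called (13.6% higher, 11.0% lower). The calls were 6 of 7 at Batf3 and 5 of 8 at Batf, all higher, 3 of 10 at Atf3 (2 higher, 1 lower), 2 of 7 at both Fos and Fosb, all lower, and Jun -10.8 kb (higher), Fosl2 -14.0 kb (lower) and Jund -3.9 kb (higher). At Fosl1 and Junb 0 of 6 were called. Time by time, 11, 13, 13 and 15 members were called higher, where 10.9%, 9.46%, 8.69% and 8.61% of all CREs were, and 2, 2, 5 and 4 lower, where 1.96%, 4.61%, 8.66% and 6.38% were. The LPS and IL-4 comparisons share the 2 UT libraries, so their values are set side by side and no overlap between them is counted.

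At Batf3 each pair of IL-4 libraries at the promoter lay above UT, at 221 and 202, 309 and 273, 298 and 265, and 260 and 264 against 67 and 87, with 1.86 ± 0.14 at 1 h (adjusted p = 1.09e-16). Batf3 -3.2 kb was almost unmarked in UT, at 14 and 14, and held 118 and 125 at 30 min and 158 and 186 at 4 h (3.22 ± 0.19), against 15 to 33 after LPS. Batf3 -11.8 kb went from 409 and 400 to between 1197 and 1356 in all 8 IL-4 libraries (1.71 ± 0.07). Batf3 +16.7 kb went in opposite directions, from 102 and 81 in UT up to 383 and 422 at 1 h of IL-4 (2.09 ± 0.12) and down to 19 and 23 at 1 h of LPS (-1.89 ± 0.29).

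At Batf the elements upstream of the gene rose after both stimuli. Batf -20.2 kb reached 96 and 103 at 4 h of IL-4 (2.95 ± 0.24) and Batf -16.4 kb, with its STAT match, 211 and 185 from 22 and 27 (2.78 ± 0.18, and 3.76 ± 0.19 after LPS). Batf -13.0 kb was already at 101 and 80 at 30 min of IL-4 and reached 204 and 190 at 4 h (3.61 ± 0.21). The downstream elements did not take part, with 270 to 394 at Batf +17.9 kb and 31 to 54 at Batf +24.1 kb in the IL-4 libraries. At Batf +1.3 kb the IL-4 values were 22 to 40 against 16 and 9. Its difference of 1.17 ± 0.32 was called at an adjusted p of 0.00764, but the call was lost without either UT library (1.46 without replicate 1, adjusted p = 0.0146, and 0.87 without replicate 2, adjusted p = 0.291), without any of the 4 libraries at 1 h and 2 h, with a pseudocount of 20 (0.73) and under quantile normalization (1.05).

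At Fos and Fosb the IL-4 values went down as well. The Fos promoter was at 495 and 414, 442 and 377, 302 and 299, and 219 and 231, so that its lowest pair came at 4 h (-1.42 ± 0.11), when the LPS pair was 351 and 405. Fos -5.1 kb reached -1.42 ± 0.13 at 2 h and Fosb -6.5 kb was at 111 and 80 at 30 min (-1.30 ± 0.19) and at 91 and 129 at 4 h. The Fosb promoter, at 108 to 142 in the IL-4 libraries, and the Fosl1 promoter, at 15 to 47, were not called. The Jun promoter held 1462 and 1522 at 30 min (0.28 ± 0.08) and 757 and 886 at 4 h (-0.58 ± 0.08), which did not pass the threshold. The Atf3 promoter held 297 to 446 and was not called, while Atf3 +2.8 kb rose to 192 and 249 at 1 h (1.16 ± 0.15) and Atf3 -18.0 kb fell by 1.19 on the log2 scale at 2 h.

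The stimuli were then compared directly at matched times over the 18 DMSO libraries. Of 62 members tested, 44 differed between LPS and IL-4, 23 higher and 21 lower after LPS at their largest difference, where 58.4% of all tested CREs differed (29.2% each way). At Batf3 all 7 were lower after LPS, and at Jun both were lower. All 6 at Junb differed (4 higher, 2 lower after LPS), 7 of 8 at Batf (6 higher, 1 lower), 7 of 10 at Atf3 (6 higher, 1 lower), 5 of 7 at Fos and at Fosb (2 higher and 3 lower each), 3 of 6 at Fosl1, 2 of 6 at Jund and 0 of 3 at Fosl2. The largest gap in favour of LPS was at Batf +24.1 kb (4.09 ± 0.20 at 4 h, adjusted p = 2.13e-28) and the largest in favour of IL-4 was at Batf3 +16.7 kb (-3.97 ± 0.20 at 1 h, adjusted p = 5.61e-28). Batf -13.0 kb was lower after LPS at 30 min (-1.93 ± 0.21) and close to equal at 2 h (-0.04 ± 0.21).

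Promoters differed between the stimuli at Batf3 (-2.51 ± 0.19 at 1 h), Fosl1 (2.01 ± 0.27 at 30 min), Fosb (1.25 ± 0.19 at 30 min), Jun (-1.19 ± 0.09 at 1 h), Junb (1.08 ± 0.06 at 2 h) and Atf3 (1.02 ± 0.11 at 2 h), and at Batf +1.3 kb (2.82 ± 0.27 at 4 h). The Fos promoter was lower after LPS at 1 h (-0.66 ± 0.12) and higher at 4 h (0.73 ± 0.12) without passing the threshold. Fosl2 and Jund differed by at most 0.19 and 0.38. Junb -6.8 kb, with its 2 TGAGTCA matches, held 1026 and 1079 at 30 min of LPS, 476 and 421 at 30 min of IL-4 and 558 and 573 in UT, and differed between the stimuli by 1.22 ± 0.10.

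Other genes of these pathways were read at their promoter CREs, where 29.2% of all tested promoter CREs were called after LPS and 6.37% after IL-4. Of 18 other AP-1-related bZIP genes with a promoter CRE, 9 were called after LPS. The 5 that rose were Batf2 (3.58 at 4 h), the small MAF genes Maff (3.09 at 30 min) and Mafk (1.29), the repressor Nfil3 (1.87) and Creb5 (1.38), and 4 fell, among them Maf (-1.94), Mafg (-1.21) and the heme-regulated repressor Bach1 (-1.09). After IL-4, 2 of 18 rose, Nfil3 (2.06) and Batf2 (1.18). Of 24 genes known as targets of serum response factor or ERK, or as feedback regulators of ERK, 15 were called after LPS, 7 higher and 8 lower. The immediate early genes Egr1 (1.80 at 30 min) and Egr2 (1.79 at 30 min) and the phosphatase gene Dusp2 (3.37 at 2 h) rose, while the ERK phosphatase gene Dusp6 (-2.01), the ERK feedback inhibitor Spry2 (-1.58) and Etv5 (-1.76) fell. After IL-4, 9 of 24 were called, 4 higher and 5 lower. Of 22 MAP kinase pathway genes 7 were called after LPS, 4 higher and 3 lower, and 0 after IL-4. Of the 8 macrophage marker promoters 6 fell after LPS and 1 after IL-4, and their part in the changes at the members was not tested.

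Over the 9 DMSO group means, the promoter CREs most like each member promoter by Pearson's r of log2 values were found among 11189 promoters and are given as a description. The Junb promoter had the closest matches, Mtmr14 (0.996), Birc3 (0.993) and Rassf4 (0.993). Batf3 was most like Ccdc40 (0.991), Fosb like Tfip11 (0.985), Fosl1 like Fbxo34 (0.982), Batf +1.3 kb like Lhx2 (0.981), Jund like Ldlrad4 (0.969), Atf3 like Ppp2r1a (0.968), Fosl2 like Rapgef5 (0.949) and Jun like Tgfb3 (0.942). The Fos promoter had the least close match, Vmp1 (0.926). All points share the same 9 groups, and the UT group enters each course.

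The inhibitor panel asked whether acetylation at these genes differs with inhibitors of MEK, ERK or JNK. The MEK inhibitors were Selumetinib, Pimasertib and Refametinib (the last given at its concentration for JNK3), the ERK inhibitors GDC0994 and Ulixertinib, and the JNK inhibitor Tanzisertib. Each compound was reduced to 1 value per window (30 min and 1 h as early, 2 h and 4 h as late), and families were compared with the 48 other CKIs (47 in the late LPS window), with the technical run of the compounds as a covariate in limma. These runs were inferred from the order of the columns in the deposited table, and the labels name no batch. The other CKIs included Encorafenib, known as an inhibitor of BRAF, a kinase upstream of MEK. At an adjusted p under 0.05, 0 member CREs were called for MEK, ERK or JNK inhibitors in any of the 5 windows, where 0% of all CREs were called for MEK and ERK and 0.00169% (1 CRE) for JNK in the late LPS, early IL-4 and UT windows. At an unadjusted p under 0.05 the members numbered 8, 0, 4, 3 and 1 of 63 for MEK (early LPS, late LPS, early IL-4, late IL-4, UT), where 6.38%, 4.71%, 2.80%, 2.80% and 2.56% of all CREs were. They numbered 1, 1, 1, 1 and 0 for ERK (at most 2.42% of all CREs) and 1, 2, 4, 1 and 1 for JNK (1.27% to 4.00% of all CREs). The p38 inhibitors, fitted as a further family, gave 0 called members as well, where 0.0322% of all CREs were called in UT. That count depended on the setting, with 13 without Talmapimod, 21 without VX702 and 4 under quantile normalization. All of the 13 and 18 of the 21 lay in the late LPS window. There 26.6% of all CREs had an unadjusted p under 0.05 for p38 inhibitors in the main fit. The share of all CREs called under these settings was not counted, so these counts are not read as particular to the members.

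The intervals of the differences bound what these few compounds can show. How far MEK, ERK or JNK was inhibited in the cells at the concentrations used was not measured in these libraries. In the early LPS window MEK inhibitors differed from other CKIs by 0.29 at the Fos promoter (95% interval 0.02 to 0.55, adjusted p = 0.741 by limma), 0.05 at Fosb (-0.26 to 0.36), -0.03 at Fosl1 (-0.49 to 0.42), 0.20 at Jun (-0.03 to 0.43), 0.26 at Junb (-0.05 to 0.58) and 0.34 at Atf3 (-0.01 to 0.68). The median over members was 0.09, against -0.13 over all CREs. ERK inhibitors gave 0.12 at the Fos promoter (-0.19 to 0.43), and the JNK inhibitor gave -0.16 at Fos (-0.60 to 0.28) and -0.11 at Jun (-0.49 to 0.27). The change of the family difference from the early to the late LPS window was called for 0 members in any family.

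**Figure D4:**
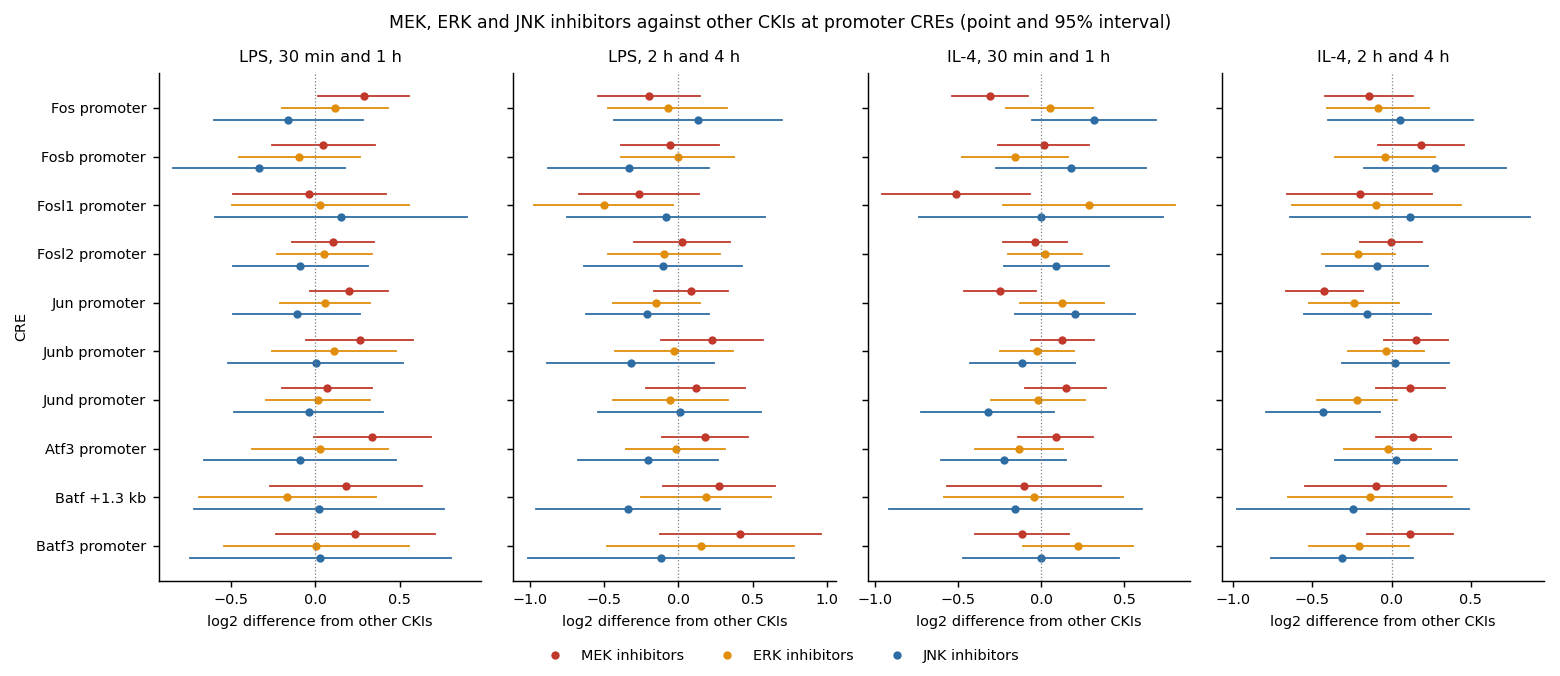
Difference in log2(value + 5) between MEK, ERK or JNK inhibitors and the other CKIs at the promoter CRE of each gene (points) with 95% intervals (bars), in the early and late windows of LPS and IL-4. Most intervals cross 0, the widest belong to JNK with 1 compound, and the Jun promoter with MEK inhibitors in the late IL-4 window sits at -0.42.

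Per library, the Fosl1 and Fosb promoters at 30 min of LPS lay above their own UT with each of these inhibitors, and the Fos promoter at 1 h lay below it. The sizes varied and were not tested, since each LPS value is 1 library. In DMSO the differences were 1.74 at Fosl1 and 0.88 at Fosb at 30 min, and -1.23 at Fos at 1 h. The Fosl1 promoter held 315 with Selumetinib, 247 with Pimasertib, 224 with Refametinib, 216 with GDC0994, 201 with Ulixertinib and 283 with Tanzisertib at 30 min of LPS. Without stimulus the same compounds gave 118, 99, 88, 104 and 109 (GDC0994 has 2 UT libraries), 101 and 222, so every LPS library lay above its own UT, by least with Tanzisertib. At the Fosb promoter the LPS values at 30 min were 303, 289, 312, 359, 304 and 292 in the same order, all above UT values of 147 to 175. The Fos promoter at 1 h of LPS held 323, 405, 353, 244, 294 and 253 against UT values of 428 to 591. Pimasertib stood out in this row, at 405 against 428 in its own UT library, a difference of -0.08 that was the smallest fall among 57 CKIs.

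The Jun promoter with Pimasertib gave the one member call of these 6 inhibitors against their own technical run. It came in the IL-4 course, where Pimasertib was called lower at 380 and higher at 1 of all 59156 CREs. At the Jun promoter Pimasertib differed from the other CKIs of its run by -0.59 ± 0.11 (limma, adjusted p = 3.93e-04). Its value was 1057 at 30 min, 540 at 1 h, 647 at 2 h and 453 at 4 h. The other libraries of the run held 1161 to 1485 (median 1235), 668 to 1101 (783), 776 to 1038 (933) and 678 to 1237 (755). Pimasertib lay below all of them at each of the 4 times, and its UT library, at 889 against 1024 to 1213, was also the lowest of the run. After LPS it was at the other end, with 1083 at 30 min against 805 to 1020 and 836 at 1 h against 571 to 832, while at 2 h and 4 h (856 and 777) it lay inside the range of the run. The call held with a pseudocount of 20 (-0.57, adjusted p = 5.25e-04) and under quantile normalization (-0.60, adjusted p = 1.29e-04). Relative to its own UT library Pimasertib stood at -0.96 at 4 h of IL-4, and Mubritinib was lower still at -1.01, so this reading sets it less apart. Each time point is 1 library.

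The other MEK inhibitors were closer to their run in the late IL-4 window, at -0.28 for Refametinib and -0.09 for Selumetinib against -0.65 for Pimasertib, and the ERK inhibitors lay at -0.20 (GDC0994) and -0.17 (Ulixertinib). As a family, MEK inhibitors differed at the Jun promoter by -0.42 (95% interval -0.67 to -0.18, adjusted p = 0.781 by limma over all CREs). In the early IL-4 window they differed by -0.31 at Fos, -0.25 at Jun and -0.51 at Fosl1, none past the adjusted threshold. The concentrations of the compounds differ, so these values are set side by side only.

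Against DMSO, some members were called with every CKI, and most calls were upwards, as they were among CREs at large. With the scaling of the authors, calls made up a smaller share of pairs for members than for all CREs in both courses. In each course the UT libraries were fitted together with the stimulated ones, with time as a factor. Each value is thus an average over UT and stimulated libraries and not a difference after the stimulus alone. The UT libraries enter both courses. Of 3654 pairs of a member and a CKI, 1048 were called in the LPS course (903 higher, 145 lower), where 36.4% of all pairs were called, and 1008 in the IL-4 course (911 higher, 97 lower), where 39.2% were. The median of all CREs was shifted by 0.39 and 0.41. Under quantile normalization, which takes out this shift, 143 (85 higher, 58 lower) and 239 (139 higher, 100 lower) were called, where 4.62% and 6.54% of all pairs were, so the higher share went from 86.2% to 59.4% and from 90.4% to 58.2%. The contrast of the CKI libraries was lower than that of DMSO, as given above, and its part in these differences was not tested.

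Among the promoters, Fosl1 was higher with the most CKIs, 41 in the LPS course and 56 in the IL-4 course, but with 8 and 11 under quantile normalization. In the IL-4 course Batf +1.3 kb was higher with 18 CKIs and lower with 0 (median 0.40). Under quantile normalization it was higher with 0 and lower with 3 (median -0.26). The Junb promoter was lower with 12 CKIs in the LPS course under either scaling. In the IL-4 course it was called with 0 CKIs, but was higher with 10 under quantile normalization. The Batf3 promoter was lower with 9 CKIs in the IL-4 course (7 under quantile normalization). The Atf3 promoter was lower with 7 in the LPS course (0 under quantile normalization). Among the MEK, ERK and JNK inhibitors, the members higher than DMSO in the LPS course were 26 with GDC0994, 25 with Pimasertib, 23 with Tanzisertib, 17 with Ulixertinib and 3 each with Selumetinib and Refametinib. Of all 59163 CREs, 28898, 22092, 28586, 19928, 678 and 523 were higher with these compounds in the same order. Lower members numbered 4 with Tanzisertib, 1 with GDC0994 and 0 with the other 4. Of all 59163 CREs, 2302 were lower with Tanzisertib, 1346 with GDC0994 and 2699 with Pimasertib. With Ulixertinib, Selumetinib and Refametinib 562, 71 and 33 were lower.

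Read against the other CKIs of the same run, calls were rare. In the LPS course 58 pairs were called (16 higher, 42 lower), where 1.46% of all pairs were called (31 under quantile normalization), and in the IL-4 course 38 (16 higher, 22 lower), where 1.39% were. The p38 inhibitor PH797804 held 35 of the 58, among them Batf +24.1 kb (-1.48 ± 0.16), the Junb promoter (-1.14 ± 0.14), Batf +17.9 kb (-1.13 ± 0.15) and the Atf3 promoter (-0.85 ± 0.16). It was also called higher at 16989 and lower at 9058 of all 59168 CREs. Without its LPS library at 30 min, described above, it held 24 member calls, where 31122 of all CREs were called, and 27 belonged to other compounds. In the main comparison the other 23 calls after LPS were spread over 9 compounds and none was an inhibitor of MEK, ERK or JNK. Mubritinib, an ERBB2 inhibitor by its usual description, was lower at Atf3 +4.5 kb (-1.20 ± 0.23, adjusted p = 5.82e-04). It was lower at 4 members and higher at 0, where it was lower at 859 and higher at 30 of all CREs. Pacritinib, known as a JAK2 inhibitor, was higher at 6 members and lower at 4, among the latter Batf +24.1 kb (-0.68 ± 0.16) and Batf +17.9 kb (-0.57 ± 0.15), where it was higher at 12196 and lower at 796 of all CREs.

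Further calls lay at Atf3 and Batf3. BGT226 was higher than its run at Atf3 -18.0 kb after LPS (1.20 ± 0.26) and after IL-4 (0.79 ± 0.16), the element that fell after both stimuli in DMSO. After LPS BGT226 was higher at 1060 and lower at 779 of all 59168 CREs. Batf3 +16.7 kb and Batf3 +21.1 kb, both of which rose after IL-4 in DMSO, were lower after IL-4 with Omipalisib (-0.77 ± 0.13, adjusted p = 1.17e-05, and -0.87 ± 0.16) and with BGT226 (-0.52 ± 0.13 and -0.69 ± 0.16). At Batf3 +16.7 kb PH797804 was lower as well (-0.70 ± 0.13) and AZD2014 was higher (0.50 ± 0.13). Of all 59156 CREs after IL-4, Omipalisib was lower at 1904 and higher at 656. PH797804 was lower at 1188 and higher at 22054, and AZD2014 was lower at 397 and higher at 79. After IL-4 BGT226 was lower at 7 members in all, the others being elements of Fos, Fosb and Fosl2, where it was lower at 3479 and higher at 2246 of all 59156 CREs. These compounds have 1 library per time.

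Finally, the response of each CKI was read within the compound, as stimulated minus its own UT library, a description added after the values were seen. Of the 39 members called after LPS in DMSO, 17 moved in the DMSO direction with every CKI at the time of the largest DMSO difference, and 37 with at least 90% of CKIs. The lowest share was 81.8%, at Junb -19.3 kb. The same shares over all called CREs were not counted. Batf -20.2 kb was higher than its own UT with all CKIs at each time (58, 57, 55 and 55 with libraries), with a median of 3.53 at 4 h against 5.56 in DMSO. The median over CKIs was smaller in size than the DMSO difference at 38 of the 39 members, so this was not particular to Batf. The part of the lower contrast of the CKI libraries in this was not tested. The Fos promoter was lower with 55 of 55 CKIs at 2 h, the Jun promoter with 57 of 57 at 1 h, and the Fosl1 promoter was higher with 55 of 58 at 30 min. After IL-4, 10 of 21 members moved the DMSO way with every CKI and 15 with at least 90%, the lowest share being 64.3% at Fosb -10.8 kb. The median over CKIs was smaller in size than the DMSO difference at all 21. The Batf3 promoter was higher than its own UT with every CKI at all 4 times, and Tanzisertib gave its lowest response at 4 h (0.46, 149 against 107) among 55 CKIs.

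**Figure D5:**
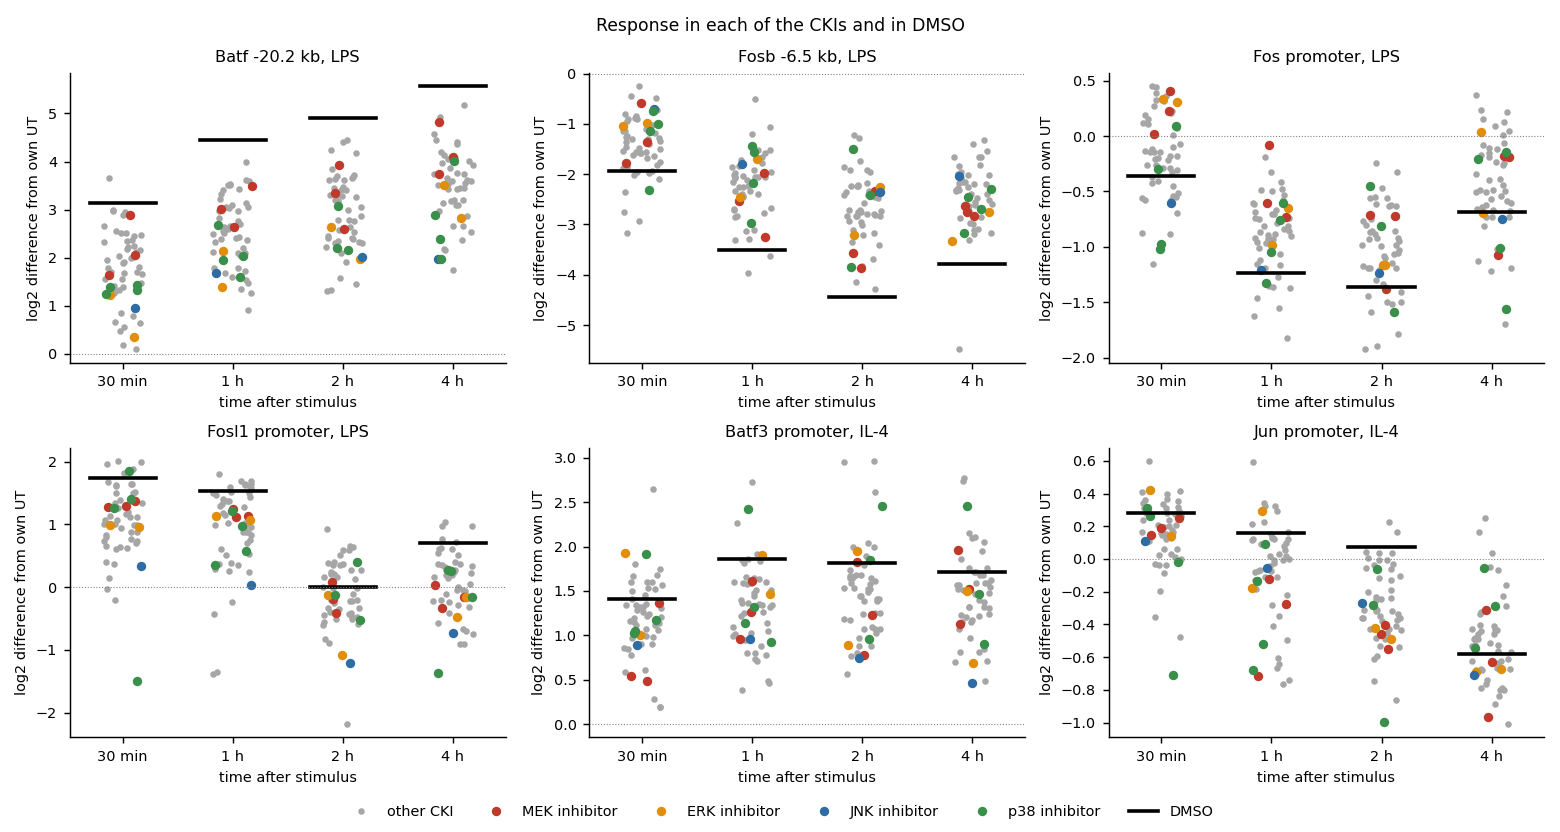
Difference in log2(value + 5) between stimulated and own UT library for each CKI (points, coloured by family) at 6 member CREs, with DMSO as a bar. Batf -20.2 kb lies above 0 with every CKI, the Fos promoter lies below 0 with every CKI at 1 h and 2 h, and Pimasertib is the highest point there at 1 h (-0.08).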

How the data were processed

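H3K27ac ChIP-seq reads were trimmed to 51 bp and mapped to mm10 by the authors, who name ShortStack, while the submitters' processing notes list Bowtie and SAMtools. The deposited table holds normalized read counts around ATAC-seq peaks, scaled on invariant peaks and rounded to whole numbers by the authors, so the unit used for these deposited values is a score, since they are no longer raw counts. Read depth behind them is therefore not known exactly, and low values are coarse.

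Library groups were taken from the treatment labels. Values were transformed to log2(value + 5) and fitted with limma 3.58.1 (R 4.3.3) over all CREs with a mean of at least 10, with Benjamini-Hochberg adjustment over all of them; fold differences are on this scale and understate the change of low CREs. DMSO time courses were called at adjusted p under 0.01 and a log2 difference over 1, CKI families at adjusted p under 0.05, and single CKIs at adjusted p under 0.05 and a log2 difference over 0.5. CKIs were assigned to 6 technical runs by their order in the table. The fits were first run on simulated data with independent noise in each library. That simulation held no technical runs and no lower contrast of CKI libraries, so it does not bear on those.

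The text names the promoter CRE of each gene, the distal CRE with the largest LPS change, and further members, with the other pathway genes read at promoters, 1 of which is not reported here. Members, lists and tests were chosen with earlier results of these data known. Alternatives were other pseudocounts, filters, thresholds and scalings, other covariates and left-out libraries or compounds. Sequences were read from mm10, with RefSeq gene starts. RefSeq promoters (250 bases upstream) matched for 9 of the 10 genes and held none of the 5 motifs.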

Additional observations from a re-analysis of the deposited data

Results flagged for a closer look

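In 5 combinations of a member and a CKI, all 4 LPS libraries lay on 1 side of the median of their technical run and all 4 IL-4 libraries on the other, with a call in at least 1 of the courses. The difference between the courses was not tested, each library is the only one of its compound, stimulus and time, and 96 calls were examined to find these. PH797804 was lower after LPS and higher after IL-4 at Atf3 -6.7 kb (-1.04 and 0.66 against the run, on the log2 scale) and at the Fosl1 promoter (-0.98 and 0.76), and its LPS library at 30 min is the one with 21.0% of CREs at 0. AMG208 was lower after LPS at the Batf3 promoter (-1.04) and higher after IL-4 (0.42, not called). Omipalisib was lower after IL-4 at Batf3 +21.1 kb (-0.87) and higher after LPS (0.69, not called). Pimasertib was lower after IL-4 at the Jun promoter (-0.59) and higher after LPS (0.20, not called).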

How the results depend on the processing

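The counts of members called in the DMSO courses stayed within 1.5 times under other pseudocounts, filters, quantile normalization, 1 fit of all 18 libraries and left-out libraries, except at a log2 threshold of 0.5, where 33 members were called after IL-4 in place of 21 and 28 falls at single times in place of 13. Replicate numbers did not pair the DMSO libraries, since none of 36 correlations between same-numbered libraries exceeded 0.1 (-0.0873 to 0.0664). With the replicate number as a block the counts were 39 after LPS, 21 after IL-4 and 44 between the stimuli, as without it, and at single times there were 59 rises and 43 falls after LPS and 53 and 13 after IL-4, against 59, 43, 52 and 13. Leaving out a library gave 36 to 39, 18 to 22 and 42 to 45 members, 54 to 59 rises and 36 to 44 falls after LPS, and 47 to 53 and 12 to 14 after IL-4. None of these counts or DMSO promoter values reversed. Of the values at single promoters, 342 kept their side of the threshold, 13 lost it and 3 gained it.

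For MEK, ERK and JNK inhibitors the count of called members was 0 under every alternative run, leave-outs of a MEK or ERK compound included (0 to 0). For p38 inhibitors it was 0, but 2 with a pseudocount of 20 and 4 under quantile normalization, 13 without Talmapimod, 21 without VX702 and 0 without PH797804 (range 0 to 21), and 1 in the early against late comparison under quantile normalization. The cause was not tested, and the share of all CREs called for p38 inhibitors under these settings was not counted. Single CKIs against DMSO gave 143 calls in the LPS course and 239 in the IL-4 course under quantile normalization, and 786 to 836 and 798 to 899 without 1 DMSO replicate. The median over CKIs against DMSO changed sign under quantile normalization at some promoters. The Batf3 promoter went from 0.17 to -0.24 in the LPS course and Batf +1.3 kb from 0.40 to -0.26 in the IL-4 course. Against their run, the calls after LPS numbered 31 under quantile normalization and 51 without the PH797804 library at 30 min, an alternative added after the values were seen. With 1 library per CKI and time, differences smaller than the intervals given were not detectable.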

Other observations

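The p38 inhibitors Losmapimod, PH797804, Talmapimod and VX702 had 12 of 63 members at an unadjusted p under 0.05 in the late LPS window and 10 in UT, with 0 past the adjusted threshold (lowest adjusted p = 0.0899 and 0.0939 by limma). In those windows 26.6% and 24.2% of all CREs had an unadjusted p under 0.05. The starts of Atf3 and Batf3 lie 84.9 kb apart on chromosome 1 and those of Batf and Fos 212.8 kb apart on chromosome 12, and no member CRE lay within the window of 2 of the genes (0 of 63). Among the members with another coding start inside, Jund -24.3 kb (Lsm4), Junb +12.6 kb (Rnaseh2a) and Fosl1 +12.9 kb (Fibp) were called in neither course.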
